A study of Mus musculus with 5 samples.

Results

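HSF1 binding was examined at 34 genes that encode glutamate receptor subunits and the pore-forming alpha1 subunits of voltage-gated calcium channels. The genes were taken by name from these families, 24 of glutamate receptors and 10 of calcium channels, out of the 21631 protein-coding genes annotated on the autosomes and X, and they do not cover the families completely. HSF1 is the transcription factor that switches on chaperone genes under protein stress. Its binding was mapped by ChIP-seq (chromatin immunoprecipitation, then sequencing) in wild-type primary cortical neurons of embryonic day 16 Swiss-Webster mice, grown to day 13 in culture. Control neurons had no drug (2 libraries, described as biological replicates). NMDA neurons received NMDA at 50 µM for 10 min and then 20 min without it (2 libraries of the same kind), and 1 input library came from untreated neurons. Each condition is 1 deposited peak list that joins its libraries, with 3316 control peaks and 3646 NMDA peaks, so values carry no error between replicates and the conditions could not be tested against each other. The lists hold no expression, so the neuronal label could not be checked against marker genes. A gene was given a peak when the peak's summit, its point of highest signal, lay inside the gene or within 10 kb of it.

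Ionotropic glutamate receptors are ion channels opened by glutamate and comprise the NMDA, AMPA and kainate receptors. Metabotropic receptors signal through G proteins. NMDA, the drug used here, opens the NMDA receptor, which passes calcium. Voltage-gated calcium channels open on depolarization, and calcium entering through both routes links neuronal activity to transcription. HSF1 binds heat shock elements, which are runs of the unit nGAAn in alternating orientation.

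Sequence was at hand for the regions just before annotated transcription starts, and no peak of either list overlapped the 28 such windows of 300 bases (250 before and 50 after a start) that RefSeq on GRCm38.p6 gives for 22 members. The share of all genes' windows that a peak overlaps was not computed, so this 0 has no background to be set against. No window was listed for Grin2a, Grin2b, Grin3a, Gria1, Gria3, Grik1, Grid1, Grm4, Grm5, Cacna1a, Cacna1g and Cacna1h. Peaks at these members could not be counted here, among them a Grin3a peak with its summit 74 bp from a gene end. The nearest approach was at Grm8, a metabotropic receptor gene on the minus strand of chromosome 6, where the edge of a control peak lay 93 bp downstream of the start at 28135146 and its summit 206 bp downstream. The same peak lay upstream of another listed Grm8 start, at 28134421, with its edge 61 bp from the window of that start. The 250 bases before the start at 28135146 (chr6:28135147-28135396, minus strand, 5′ to 3′) are shown because they flank the member peak closest to a listed start. They hold no pair of heat shock units and so carry no capitals.
Grm8 upstream region: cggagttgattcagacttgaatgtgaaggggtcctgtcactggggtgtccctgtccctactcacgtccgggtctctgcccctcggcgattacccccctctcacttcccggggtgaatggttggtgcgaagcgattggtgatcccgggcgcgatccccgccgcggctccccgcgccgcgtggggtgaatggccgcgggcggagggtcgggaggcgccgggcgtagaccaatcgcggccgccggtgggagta

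Pairs of heat shock units, GAANNTTC or TTCNNGAA on either strand (each reads the same on both), were searched in the same windows. A pair was found in 4 of 28 member windows (14.3%) and in 4946 of 32851 windows of all genes (15.1%), so the members' share is near the background. The genes were Cacna1c, Cacna1d, Grik2 and Grm3. Runs of 3 units (GAANNTTC followed by NNGAA, or the reverse complement) were in 0 member windows and in 0.603% of all windows. In 3 of the 4 member windows a pair lies before the start. For each of the 3, the 60 bases around 1 such pair are shown, the pair in capitals, all on the minus strand and 5′ to 3′. They stand at chr6:118757975-118758034 for Cacna1c, chr14:30491254-30491313 for Cacna1d and chr10:49788945-49789004 for Grik2, whose window holds 2 pairs of which the first is marked.
Cacna1c: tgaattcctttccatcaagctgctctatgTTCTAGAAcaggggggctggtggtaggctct
Cacna1d: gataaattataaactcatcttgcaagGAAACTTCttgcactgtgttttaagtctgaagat
Grik2: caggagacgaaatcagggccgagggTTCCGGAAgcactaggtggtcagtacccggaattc
The nearest peak to these 3 windows was 36.1 kb away, an NMDA peak inside Grik2. The nearest peak of either list was 109 kb away for the Cacna1c window and 193 kb away for the Cacna1d window. Cacna1c has 3 listed starts and Cacna1d has 2, and their other windows hold no pair. The Cacna1c start shown, at 118757974, lies inside the gene (118587240 to 119197384). Another Cacna1c window was 23.5 kb from a control peak, and the other Cacna1d window was 55.3 kb from one.

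Few of the receptor and channel genes had an HSF1 peak in control neurons and more had one after NMDA, and neither number stands clear of genes of like length. In the control list 8 of 34 members had a peak (23.5%, exact 95% interval 10.7 to 41.2%, counting error only), against 10.3% of all protein-coding genes. In the NMDA list 15 of 34 had one (44.1%, 27.2 to 62.1%), against 9.41% of all. The members are long, with a median of 232 kb against 17.3 kb for all protein-coding genes, and longer genes had a peak more often. In the control list the share was 7.65% of all genes under 100 kb and 55.3% of those over 300 kb. Each member was therefore set beside the 100 other protein-coding genes nearest to it in length. Over those genes 32.9% had a control peak and 34.8% an NMDA peak, and both shares lie inside the members' intervals. The members lay 9.38 percentage points below their like-length genes in the control list and 9.29 points above them in the NMDA list.

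By density the members lay below their like-length genes in the control list and level with them in the NMDA list. The members with their flanks span 10.6 Mb and held 10 control peaks, 0.0947 per 100 kb, where like-length genes had 0.165 per 100 kb. They held 19 NMDA peaks, 0.180 per 100 kb, where like-length genes had 0.182. At the like-length rate the members would have held 17.1 control and 18.9 NMDA peaks. The 10 control peaks were 0.302% of their list (0.145 to 0.554%) and the 19 NMDA peaks 0.521% of theirs (0.314 to 0.813%), so the intervals overlap. Read counts were not analysed here, so library depth is unknown and its part in these numbers was not tested.

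Peaks were concentrated in the longest members. All 8 members with a control peak were longer than 300 kb, among 15 members of that size (53.3%), against 55.3% of the 557 protein-coding genes over 300 kb. Of the 7 members from 100 to 300 kb 0 had a control peak, against 23.7% of all genes in that range, and of the 12 under 100 kb 0 had one, against 7.65%. In the NMDA list 12 of the 15 longest members had a peak (80.0%), against 59.2% of all genes over 300 kb. From 100 to 300 kb the NMDA list had a peak at 2 of 7 members, Gria2 and Grin3a (28.6%, against 25.1% of all genes). Under 100 kb it had one at 1 of 12, Grm4 of 91.4 kb (8.33%, against 6.44%). Both shares are near the background. These length limits were set after the values were seen.

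**Figure D1:**
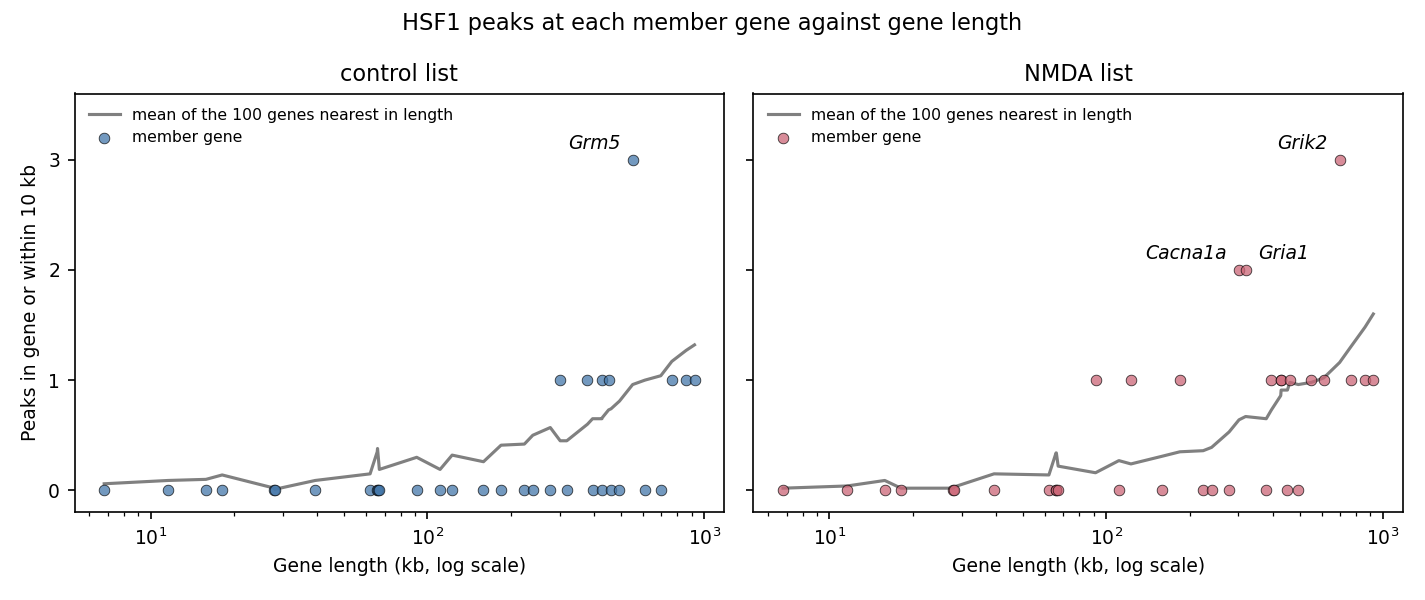
Peaks in or within 10 kb of each of the 34 member genes (points) against gene length on a log scale, for the control list (left) and the NMDA list (right); the grey line joins the mean of the 100 genes nearest in length to each member. Grm5 has 3 control peaks and Grik2 has 3 NMDA peaks, and most other members have 0 or 1; the step in the line near 66 kb is at Grik5 and Cacna1g, whose like-length genes include Top2b.

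NMDA receptor subunits, the direct target of the drug, had 1 control and 3 NMDA peaks over 7 genes, where like-length genes would have held 2.12 and 2.45. Grin1, which encodes the subunit that every NMDA receptor needs, had 0 peaks in both lists, and its nearest control summit was 28.4 kb outside the gene. Grin2a, which encodes a glutamate-binding subunit that rises as the cortex matures (chromosome 16, 9567901 to 9996083), held a 2.01-fold control peak at 9803946 to 9804486 and a 2.80-fold NMDA peak at 9682329 to 9682575. Fold is the authors' enrichment of a peak over background, and folds of the 2 lists were not put on a common scale here. The summits of these 2 peaks were 122 kb apart, and the control peak had a −log10 q of 0.620, a q above 0.05. Grin2b, whose product prevails early in development, had 1 NMDA peak of 1.85-fold at 135891530 to 135891741 on chromosome 6, with a −log10 q of 0.406, which is a q above 0.05. Grin3a, a glycine-binding subunit gene on chromosome 4, had a 3.12-fold NMDA peak at 49845834 to 49846017, with its summit 74 bp inside the higher-numbered end of the gene. Grin2c, Grin2d and Grin3b, the longest of them 39.3 kb, had 0 peaks in both lists.

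Only 1 member per list had a summit within 1 kb of an annotated gene end, Grm8 in the control list and Grin3a in the NMDA list. The shares over all protein-coding genes were 2.55% and 1.93%. With 34 members, 1 gene is 2.94%, so the members' shares are near the background.

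AMPA receptor subunits, which carry most fast excitatory transmission, had 1 control peak and 3 NMDA peaks over 4 genes, where like-length genes would have held 1.94 and 2.09. Gria1 (chromosome 11, 57011571 to 57330244) had 2 NMDA peaks and 0 control peaks. Its 3.44-fold peak at 57005299 to 57005742 lay 5971 bp outside the lower-numbered end, and its 3.23-fold peak at 57155368 to 57155749 lay inside. Of its 100 like-length genes, 16 had at least 2 NMDA peaks. Gria2, whose product makes AMPA receptors nearly impermeable to calcium, had a 2.87-fold NMDA peak on chromosome 3 at 80800924 to 80801357, 1651 bp downstream of its listed start. Gria4 had a 2.96-fold control peak on chromosome 9 at 4793540 to 4793866, 2526 bp downstream of its start, and 0 NMDA peaks. Gria3 lies on chromosome X, which held 3 control and 5 NMDA peaks in all, and had 0 in both lists. Its nearest summit was 2910 kb away, in the NMDA list.

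Kainate receptor subunits had 0 control peaks and 5 NMDA peaks over 5 genes, or 0.262 per 100 kb after NMDA, against 0.168 and 0.186 in like-length genes. Grik2 (chromosome 10, 49093680 to 49790161), 696 kb long, held 3 of the 5. They were a 2.66-fold peak at 49262145 to 49262334, a 2.59-fold peak at 49710691 to 49711099 and a 2.05-fold peak at 49752225 to 49752602. All 3 were below the median fold of the NMDA list, 2.69, and the last had a −log10 q of 0.64, a q above 0.05. Of its like-length genes 13 of 100 had at least 3 NMDA peaks, and 61 of 100 had a control peak where Grik2 had none. Grik1 had a 3.23-fold NMDA peak at 88203835 to 88204190 on chromosome 16. Grik4, a subunit that raises agonist affinity, had a 2.84-fold NMDA peak at 42636236 to 42636487 on chromosome 9. Grik3 and Grik5 had 0 in both lists.

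The delta receptor gene Grid1, which encodes a synapse-organizing member of the family (chromosome 14, 34820003 to 35583387), carried the strongest member peak of the NMDA list. It was 3.53-fold at 35499353 to 35499609 and ranked 329 of 3646 by fold. Its control peak, 2.51-fold at 35419071 to 35419382, had its summit 80.2 kb away.

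Across the 16 NMDA, AMPA and kainate receptor genes, 2 had a control peak and 8 an NMDA peak (12.5% and 50.0%, against 31.2% and 32.9% of like-length genes). They held 2 and 11 peaks, or 0.0455 and 0.251 per 100 kb, against 0.166 and 0.185 in like-length genes. These genes lay below the like-length density in the control list and above it in the NMDA list, while Grid1 lay below it in both (0.128 per 100 kb in each list, against 0.155 and 0.172). The families were planned one by one, and this pool, which leaves out Grid1, was not in that plan. Its 2 and 11 peaks, where like-length genes would have held 7.17 and 7.99, are small counts given without an interval. The difference between the lists has no replicate check.

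Metabotropic receptors had 5 control and 4 NMDA peaks over 7 genes (0.177 and 0.141 per 100 kb, against 0.165 and 0.172 in like-length genes). With a q below 0.05 the order turned, to 1 control and 3 NMDA peaks. Grm5, which couples to phospholipase C and calcium release (chromosome 7, 87583981 to 88135063), held 3 control peaks, the most of any member in that list. They were of 2.38-fold at 87680489 to 87680813, 2.31-fold at 87742604 to 87742794 and 2.38-fold at 87923294 to 87923546. Its single NMDA peak, 2.77-fold at 87941890 to 87942191, had its summit 18.6 kb from the last of these, the closest pair of control and NMDA summits in any member. All 3 control peaks were below the control median of 2.67-fold and had a q above 0.05, and 8 of 100 like-length genes had at least 3 control peaks.

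The remaining metabotropic genes inhibit adenylyl cyclase. Grm7, the longest member at 922 kb, had a 2.08-fold control peak at 110995677 to 110995931 and a 2.80-fold NMDA peak at 111557911 to 111558135 on chromosome 6. The control peak had a −log10 q of 0.898, a q above 0.05. Grm8 had the 2.77-fold control peak near its start (28134732 to 28135053) and a 1.63-fold NMDA peak at 27375504 to 27375841, whose −log10 q of 0.0802 was the lowest among member peaks. Grm4 had a 2.80-fold NMDA peak at 27424471 to 27424684 on chromosome 17, 2243 bp inside its lower-numbered end. Grm2, Grm3 and Grm6 had 0 in both lists, and the nearest control summit to Grm3 was 22.6 kb outside it.

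**Figure D2:**
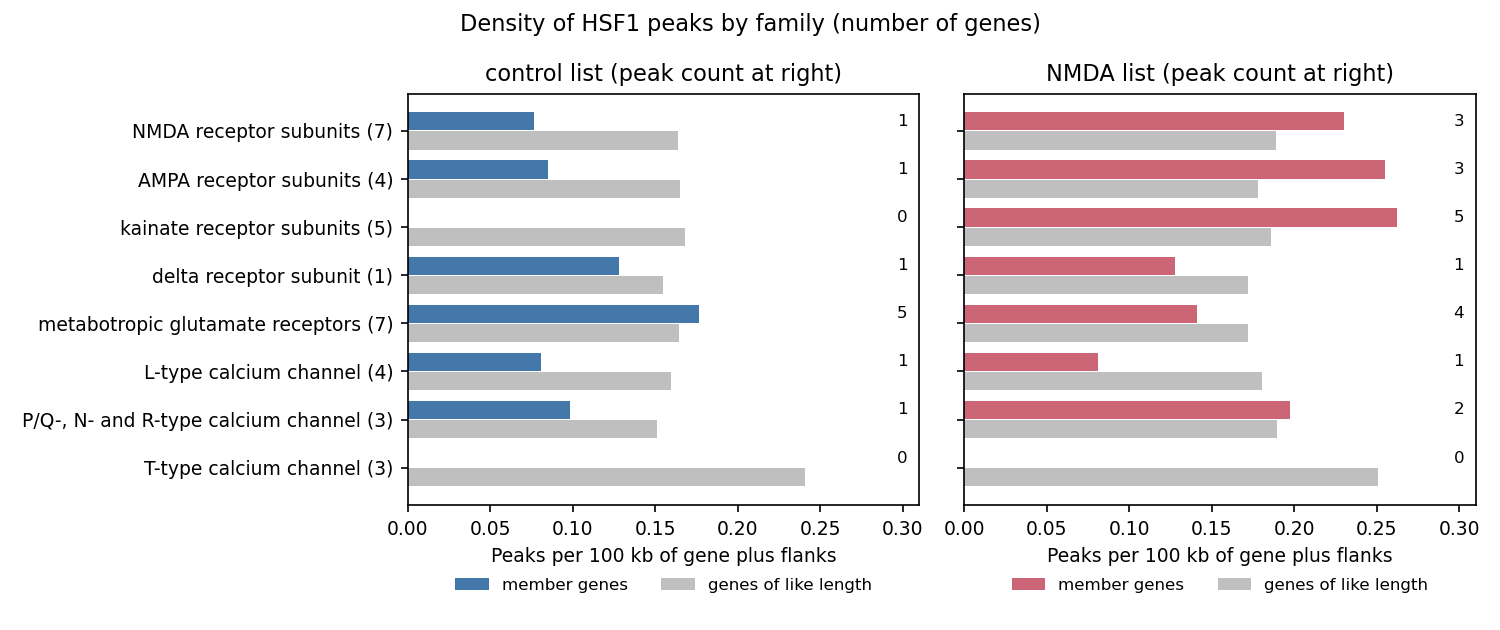
Peaks per 100 kb of gene plus 10 kb flanks for each family (coloured bars, number of genes in brackets, peak count at the right) and for the genes of like length (grey bars), in the control list (left) and the NMDA list (right). NMDA, AMPA and kainate receptor genes are below the grey bars in the control list and above them in the NMDA list, each on 0 to 5 peaks.

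Calcium channel genes had fewer peaks than genes of like length in both lists, on small counts. Over 10 genes there were 2 control peaks and 3 NMDA peaks, where like-length genes would have held 4.17 and 4.84. The densities were 0.0784 and 0.118 per 100 kb, against 0.166 and 0.192. The control list had a peak at 2 genes and the NMDA list at 2 (20.0% each, against 28.2% and 31.8% of like-length genes). Only Cacna1a had one in both. With a q below 0.05 there were 2 control peaks and 1 NMDA peak. Cacna1a, the P/Q-type channel of presynaptic terminals (chromosome 8, 84338631 to 84640251), held the strongest control member peak, 3.08-fold at 84414732 to 84415074, rank 318 of 3316. In the NMDA list it held a 3.33-fold peak at 84497902 to 84498148 and a 2.13-fold peak at 84329681 to 84330151, the latter 8792 bp outside the lower-numbered end. Among the L-type channels, which are coupled to activity-driven transcription, Cacna1d had a 2.57-fold control peak at 30297856 to 30298131 on chromosome 14. Cacna1c had a 2.47-fold NMDA peak at 118648671 to 118648933 on chromosome 6. Its −log10 q was 1.15 and that of the 2.13-fold Cacna1a peak 0.729, both a q above 0.05.

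No other channel gene had a peak. Cacna1b, the N-type channel, and Cacna1e, the R-type channel, had 0 in both lists, although 55 and 58 of the 100 genes nearest in length to Cacna1e had a control or an NMDA peak. The T-type genes Cacna1g, Cacna1h and Cacna1i had 0 over 299 kb with flanks. Their like-length density of 0.241 and 0.251 per 100 kb includes Top2b, a 65.6 kb gene with 13 peaks in each list, and was 0.198 and 0.208 without it. Cacna1f, a retinal channel on chromosome X, and Cacna1s, the skeletal muscle channel, had 0 as well.

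No control peak at a member overlapped an NMDA peak. Overlap with the other list was 0 of 10 for control peaks and 0 of 19 for NMDA peaks. Of all control peaks 2.90% overlapped an NMDA peak, and of all NMDA peaks 2.61% overlapped a control peak, so 0 is near the background. A peak in both lists was present at 6 members, Grin2a, Grid1, Grm5, Grm7, Grm8 and Cacna1a (17.6% of 34, against 18.5% of like-length genes and 2.72% of all protein-coding genes), with closest summits from 18.6 kb (Grm5) to 759 kb (Grm8) apart. With a q below 0.05 Grin2a, Grm5 and Grm7 lost their control peaks and Grm8 its NMDA peak. Of the 6, only Grid1 and Cacna1a then kept a peak in both lists. The share of other genes with a peak in both lists under that limit was not computed. Without that limit Cacna1d and Gria4 had a peak in the control list alone, 2 members (5.88%, against 14.4% of like-length genes and 7.54% of all). Another 9 had one in the NMDA list alone (26.5%, against 16.3% of like-length genes and 6.68% of all). The remaining 17 members had no peak in either list (50.0%, against 50.8% of like-length genes).

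**Figure D3:**
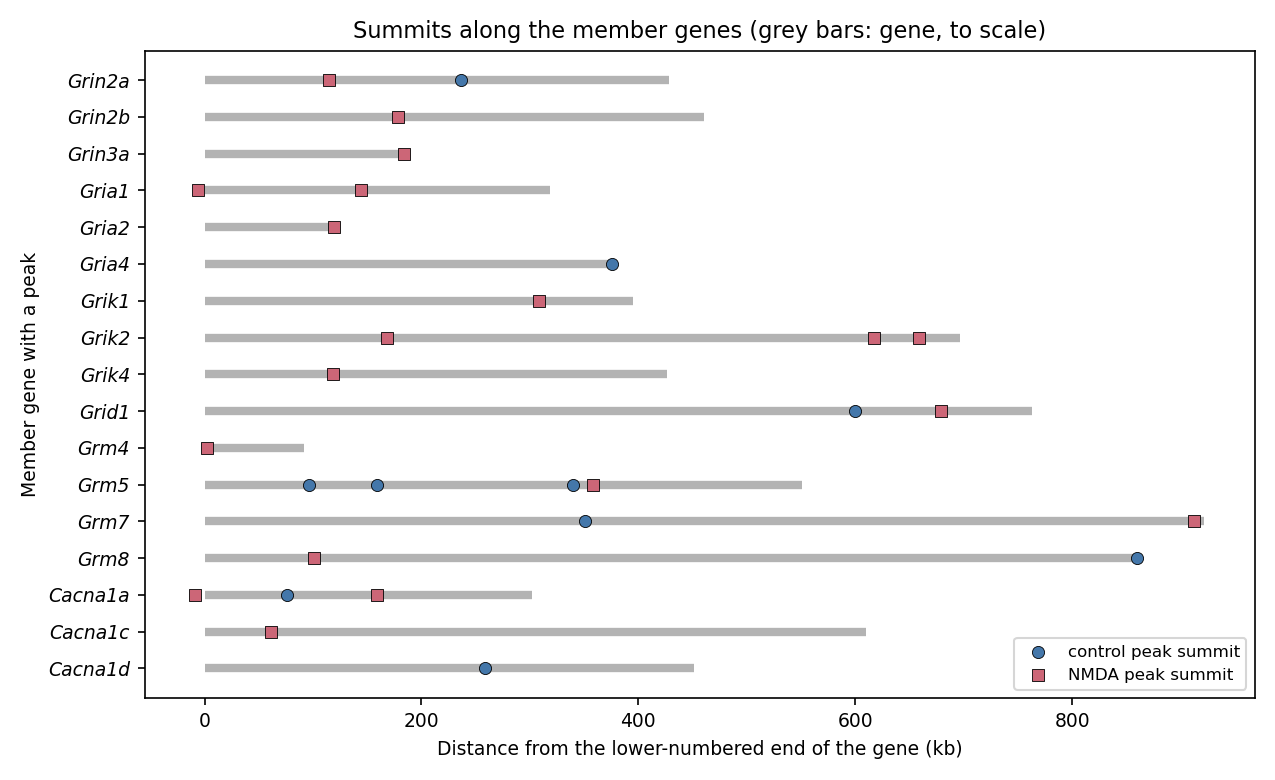
Summits of control peaks (circles) and NMDA peaks (squares) along the 17 members with a peak, in kb from the lower-numbered end of each gene (grey bar, to scale). The 2 summits below 0 are NMDA peaks of Gria1 and Cacna1a, and in no gene do a circle and a square mark overlapping peaks.

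Member peaks lay mostly deep inside the genes. All 10 control summits and 17 of 19 NMDA summits were inside the member, 8 and 13 of them more than 10 kb from either end. The members are long, so most of the length searched is gene body, and the share expected from length alone was not computed. In the gene body alone the members held 0.101 control and 0.172 NMDA peaks per 100 kb, against 0.0947 and 0.180 with flanks. These positions therefore show no preference for the inside of the genes. Exon and intron positions were not used here. No other annotated gene of any kind overlapped a member summit.

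By median fold, control member peaks were weaker than their list and NMDA member peaks slightly stronger than theirs. Control folds ran from 2.01 to 3.08 with a median of 2.44, against 2.67 for the whole control list, and 3 of 10 reached that list's median. NMDA folds ran from 1.63 to 3.53 with a median of 2.80, against 2.69, and 12 of 19 reached the list's median. None was at or above 4-fold. Of all peaks, 17 of 3316 in the control list and 182 of 3646 in the NMDA list reached it. At those rates 0 among so few member peaks is near the background. A q below 0.05 was listed for 5 of 10 control member peaks (50.0%, against 68.9% of the list) and 14 of 19 NMDA member peaks (73.7%, against 76.3%).

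**Figure D4:**
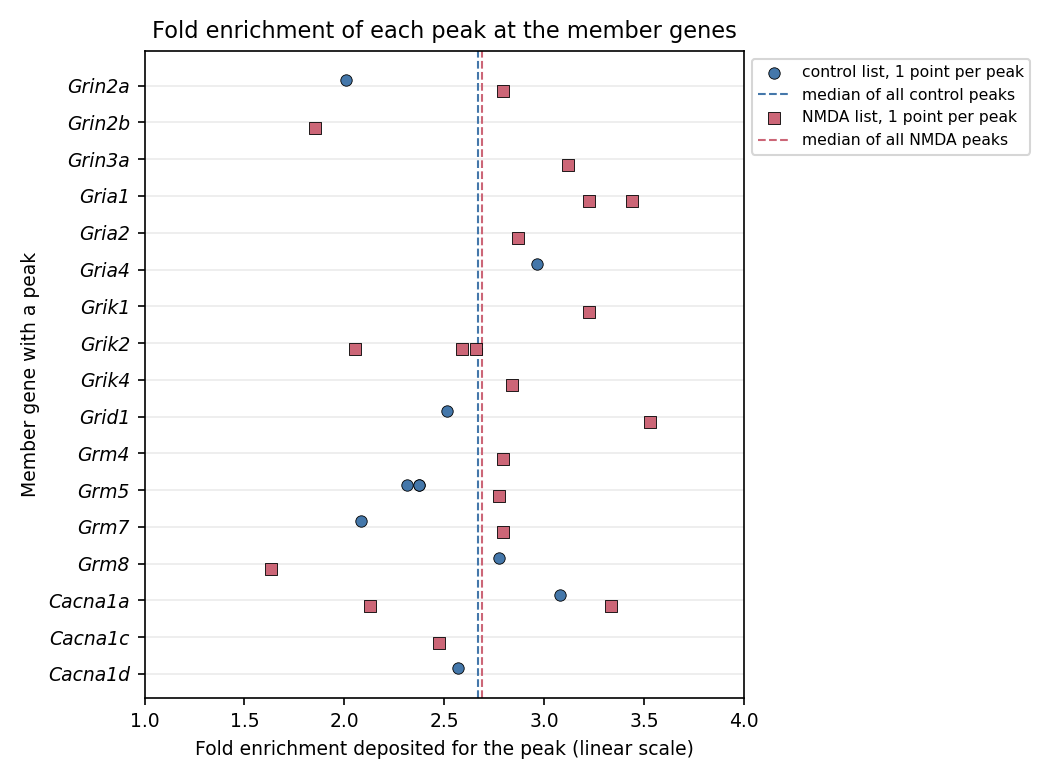
Fold enrichment deposited for each peak at the 17 members with a peak (circles control, squares NMDA). Dashed lines mark the median of all peaks of each list, and the lists were not put on a common scale. Control points lie between 2.01 and 3.08 and NMDA points between 1.63 and 3.53, on both sides of the medians.

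Several member peaks carried identical values. The NMDA peaks at Grin2a, Grm4 and Grm7 all had 2.80-fold and a −log10 q of 2.03, a pair of values that 311 peaks of that list share. The Gria1 peak inside the gene and the Grik1 peak shared 3.23-fold with a −log10 q of 3.79, as did 80 peaks in all. Ranks among such peaks are ties.

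Genes that work beside these receptors and channels were counted in the same way, 43 in all, of which 14 had a control peak and 13 an NMDA peak (32.6% and 30.2%, against 22.5% and 23.0% of genes like them in length). Auxiliary subunits of glutamate receptors, which set gating and trafficking, had a control peak in 4 of 14 and an NMDA peak in 1 of 14 (28.6% and 7.14%, against 17.4% and 19.5% of like-length genes). Shisa6 led with 2 control peaks (2.81-fold and 2.57-fold) and 0 after NMDA. Auxiliary subunits of calcium channels had a control peak in 4 of 10 and an NMDA peak in 6 of 10 (against 26.5% and 26.4% of like-length genes). Cacna2d3, an alpha2delta subunit gene of 818 kb, had 4 NMDA peaks of up to 2.90-fold and 0 control peaks. Genes nearest in length to Grid1 (763 kb) and Grm8 (860 kb) averaged 1.30 and 1.48 NMDA peaks, and 1.17 and 1.27 control peaks. How many genes of like length to Cacna2d3 had as many peaks was not counted. Cacnb4 had 2 control peaks of up to 3.29-fold and 1 NMDA peak of 3.01-fold. Signalling genes below the receptors had a peak in 6 of 19 in each list (31.6%, against 24.2% and 23.6%). Chosen after the values were seen, Cacnb2 (4.52-fold) and the ryanodine receptor gene Ryr2 (4.44-fold) had NMDA peaks stronger than that of any member.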

How the data were processed

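HSF1 ChIP-seq was deposited as 1 peak list per condition. FastQC, Trimmomatic, BWA, SAMtools and MACS2, with builds mm10 and GRCm38.p6, are named per the submitters' processing notes, and the step that joined the libraries of a condition is not stated there. The deposited lists give, for each peak, a score, a fold enrichment (a ratio over background), and p-values and q-values as −log10. Both lists include peaks with a q above 0.05. Gene positions, starts and sequences came from RefSeq tables of GRCm38.p6. Peaks were placed at genes with pandas 2.3.3 in Python 3.11.15 by the summit, in the gene or within 10 kb, and placement was tested on planted peaks. Density divides peaks by gene length plus flanks. Like-length genes were the 100 nearest non-members per member and may repeat between members. Shares carry Clopper-Pearson 95% intervals (SciPy 1.17.1), which cover counting error only. No test was run. Every member with a peak was named with its peaks, and of related genes those with at least 2 peaks in a list. Members and lists were chosen with earlier results of these data known. Peak sequences were not analysed here. Alternatives varied the window, peak strength, interval overlap and the like-length genes.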

Additional observations from a re-analysis of the deposited data

How the results depend on the processing

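Of 70 values recomputed under a first set of alternatives, 59 stayed within 1.5 times of the reported ones. The 41 values added after the data were seen (autosomes alone, Top2b left out, and differences) also did, apart from differences between shares. Those were held to the members' counting interval, which all stayed within. That interval is wide enough for either difference to fall to 0, so staying within it is a weak check. The other 11 of the 70 came from stricter peaks. With a q below 0.05, control members with a peak fell to 5, on 5 peaks (0.0474 per 100 kb), and Grin2a, Grm5 and Grm7 lost theirs. Like-length genes then had 24.8% and 0.113 per 100 kb in the control list. NMDA members numbered 12, on 14 peaks (0.133 per 100 kb). Their like-length genes had 29.8% and 0.145 per 100 kb, so the member density lay below theirs. With peaks at or above the list's median fold, 3 members had 3 control peaks (0.0284 per 100 kb), and like-length genes had 19.3% and 0.0802 per 100 kb. In the NMDA list 12 peaks remained (0.114 per 100 kb, against 0.103 in like-length genes). Members lay 7.29 to 10.7 percentage points below like-length genes in the control list and 5.50 to 11.5 points above them in the NMDA list under every alternative run, and NMDA peaks outnumbered control peaks by 7 to 10. Shared peaks stayed at 0 with 50% overlap or summits within 500 bp. Peak counts by group were also recomputed. NMDA minus control was 6 to 10 for the 16 NMDA, AMPA and kainate receptor genes. For metabotropic receptors it was −1 and turned to 2 with either stricter choice of peaks. For calcium channels it was 1, turned to −1 with a q below 0.05, and was 0 with the gene body alone, with 5 kb flanks or with peaks at or above the median fold. Of the counts of single members 139 of 161 stayed within 1.5 times, a tally that includes settings unable to change them. Autosomes alone could not change any member count, because no member with a peak lies on chromosome X. A change of flank could not remove a summit inside a gene. Most of the changes came from the stricter choices of peaks. Leaving out a replicate and searching peaks for heat shock motifs were not run, because each list joins both libraries and peak sequence was not used here. No paired analysis was possible because single replicates have no values.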
